A study of Bos indicus and Bos taurus with 17 samples.

Results

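The expression of the Toll-like receptors (TLR) was examined in mammary epithelial cells (MEC) captured from the milk of Kashmiri and Jersey cattle. The family was taken as TLR1 to TLR10, looked up by gene name, and 7 of these 10 members had an entry among the 61264 entries of the authors' expression values (TLR2, TLR3, TLR4, TLR5, TLR6, TLR7 and TLR10). Each of the 7 had a single entry of its own, and TLR1, TLR8 and TLR9 were not analysed here because no entry carried their names. Milk was collected from cows of each breed on day 15 of lactation (D15), on D90 and on D250, which stand for its early, middle and late stages, and the labels gave 3 samples for each breed and day except for 2 for Jersey at D90. The labels place all D15 samples in March, all D90 samples in July and all D250 samples in December, so the day in milk and the season cannot be told apart. The study describes all cows as healthy and in the same lactation, whereas the labels give lactation number 2 or 3, unevenly over the groups. All Jersey samples at D250 and all Kashmiri samples at D90 had number 2, while every other group held both numbers. By these numbers, the cows of a breed cannot all have been the same through a lactation. The labels do not otherwise show whether any cow was followed over time. Cells were captured with magnetic beads carrying an antibody to cytokeratin 18, and polyadenylated RNA was sequenced. Expression is given as FPKM, the fragments assigned to a gene scaled by its transcript length and by the sequencing depth, for which the authors made 1 value per breed and day, pooled over the cows of the group. Sets of 3 values for a breed are in the order D15, D90 and D250 throughout. In these pooled values there was therefore no spread between cows and no error, no test was made here, and a single cow could carry a group value. The number of reads behind each value is unknown. The study itself tested genes between days and between breeds with Cuffdiff. It reports Toll receptor signalling as enriched among the genes differing between D15 and D90 and between D15 and D250, in Jersey cattle only. Its test results for single receptors are not given here.

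Toll-like receptors are the germline-encoded sensors with which leucocytes and epithelia recognise conserved microbial molecules. TLR2, TLR4, TLR5 and TLR6 act at the cell surface on bacterial products, while TLR3 and TLR7 act in endosomes on RNA. TLR2, TLR4, TLR5, TLR6 and TLR7 can signal through the adaptor MYD88 to NF-κB, and TLR3 signals through TICAM1. In the udder, TLR4 is known as the sensor of the lipopolysaccharide of Gram-negative mastitis bacteria and TLR2 as a sensor of the lipoproteins of Gram-positive ones.

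The captured cells held transcripts of more than epithelium. KRT18, the target of the capture antibody, ranged from 1.59 to 51.3 FPKM over the 6 groups, while the leucocyte genes PTPRC (CD45), ITGB2 (CD18) and LSP1 ranged from 60.0 to 320.2, from 46.5 to 179 and from 68.6 to 334 FPKM. The study compared captured cells with milk somatic cells by quantitative PCR at D90. It found KRT18 and CSN2 higher and LSP1, HBA and CD18 lower in the captured cells, and proposes that contamination by other cells was minimal. That check was relative to milk somatic cells, whereas the FPKM are levels within the captured cells. The summed level of 12 epithelial marker genes was lowest in Jersey at D90 (102 FPKM) and highest in Kashmiri at D15 (5949 FPKM). CSN2, the beta-casein gene, was listed at 0 in 5 of the 6 groups, and the milk protein genes CSN1S1 and PAEP were at 0 in the same groups. The study lists CSN2 among its most highly expressed genes in every group, so these zeros give no level of it. In these bulk samples, fewer cells of a type and less RNA per cell cannot be told apart, so each TLR level below is that of the captured cells as a mixture.

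TLR2 and TLR4 were the most abundant of the 7 measured receptors in every group. TLR2, the receptor for bacterial lipoproteins, had 6.87, 9.04 and 15.7 FPKM in Kashmiri and 63.5, 177 and 299.9 FPKM in Jersey cattle. TLR4, the receptor for lipopolysaccharide, had 5.47, 9.45 and 20.7 FPKM in Kashmiri and 40.1, 143 and 337 FPKM in Jersey cattle. For both genes the values were ordered by day within each breed, and the lowest Jersey value lay above the highest Kashmiri value. TLR2 spanned 43.6-fold and TLR4 spanned 61.5-fold between the lowest and the highest group. In Jersey at D250, TLR4 ranked 440 and TLR2 ranked 481 by FPKM among 21631 distinct names, whereas in Kashmiri at D15 they ranked 6453 and 5838.

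**Figure D1:**
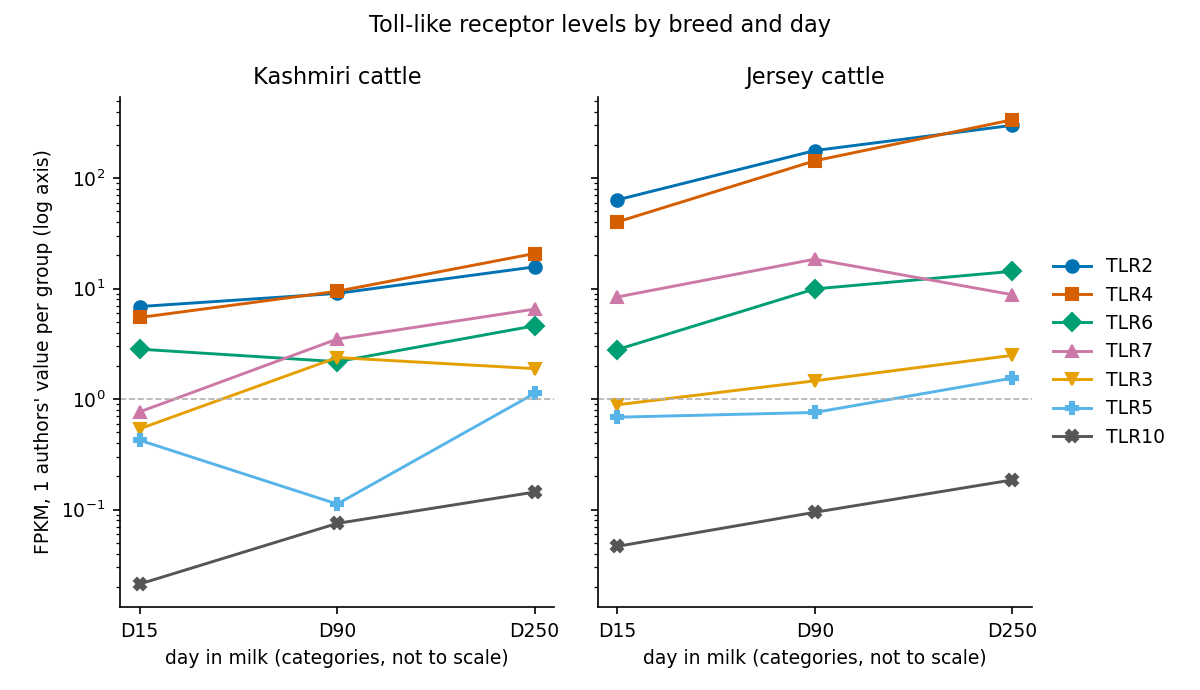
Levels of the 7 measured Toll-like receptors, in FPKM on a log axis, against day in milk for Kashmiri cattle (left) and Jersey cattle (right). Each point is the authors' single value for a group, the dashed line marks 1 FPKM, and TLR2 and TLR4 lie above the other receptors in all 6 groups, from 5.47 to 20.7 FPKM in Kashmiri and from 40.1 to 337 FPKM in Jersey cattle.

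TLR6, which pairs with TLR2 to recognise diacylated lipoproteins, was far less abundant than its partner. It had 2.83, 2.18 and 4.601 FPKM in Kashmiri and 2.81, 9.93 and 14.3 FPKM in Jersey cattle. The breeds were thus level at D15 and apart at the later days. TLR2 exceeded TLR6 by 2.43, 4.15 and 3.41-fold in Kashmiri and by 22.6, 17.9 and 21.0-fold in Jersey cattle. TLR10, a relative of TLR6, stayed under 1 FPKM in all groups. Its values were 0.0212, 0.0749 and 0.144 FPKM in Kashmiri and 0.0465, 0.0945 and 0.185 FPKM in Jersey cattle, low enough that no change was read from them. In the RefSeq annotation of the assembly NIAB-ARS_B.indTharparkar_mat_pri_1.0, in which all 10 members were found by symbol, TLR1 lies within the TLR6 gene and next to TLR10, and TLR8 is the neighbour of TLR7. That assembly is not the authors' UMD3.1, and whether the TLR6 and TLR7 entries hold reads of the neighbours without an entry was not tested.

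TLR5, the flagellin receptor, was near or under 1 FPKM throughout. It had 0.424, 0.112 and 1.12 FPKM in Kashmiri and 0.685, 0.756 and 1.55 FPKM in Jersey cattle. It reached 1 FPKM at D250 in both breeds and at no earlier day.

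The RNA sensors of the endosome, TLR3 and TLR7, were less abundant than TLR2 and TLR4 in every group, and each was ordered by day in 1 of the breeds. TLR7, the receptor for single-stranded RNA, had 0.766, 3.49 and 6.51 FPKM in Kashmiri and 8.398, 18.5 and 8.79 FPKM in Jersey cattle. Its value was thus highest at D250 in Kashmiri and at D90 in Jersey cattle, where D15 and D250 were nearly equal (1.05-fold, log2 ratio 0.06, and -0.07 or -0.04 rescaled to the sum or by the upper quartile). TLR3, the receptor for double-stranded RNA, had 0.539, 2.38 and 1.88 FPKM in Kashmiri and 0.888, 1.46 and 2.49 FPKM in Jersey cattle. It was the only one of the 7 whose Kashmiri value at D90 was above the Jersey value, by 1.62-fold. TLR7 exceeded TLR3 in every group, by between 1.42-fold in Kashmiri at D15 and 12.6-fold in Jersey at D90.

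The make-up of the measured part of the family differed between the breeds. The FPKM of the 7 receptors summed to 16.9, 26.7 and 50.7 in Kashmiri and to 116, 351 and 664 in Jersey cattle. TLR2 and TLR4 together made up 72.9%, 69.2% and 71.9% of this sum in Kashmiri and 89.0%, 91.3% and 95.9% in Jersey cattle. TLR3 and TLR7 together made up 7.71%, 22.0% and 16.6% in Kashmiri and 7.98%, 5.67% and 1.70% in Jersey cattle. TLR6 alone made up 16.7% in Kashmiri at D15 and no more than 2.83% in any Jersey group. These shares are taken within a group, so they do not depend on how the groups were scaled against each other.

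**Figure D2:**
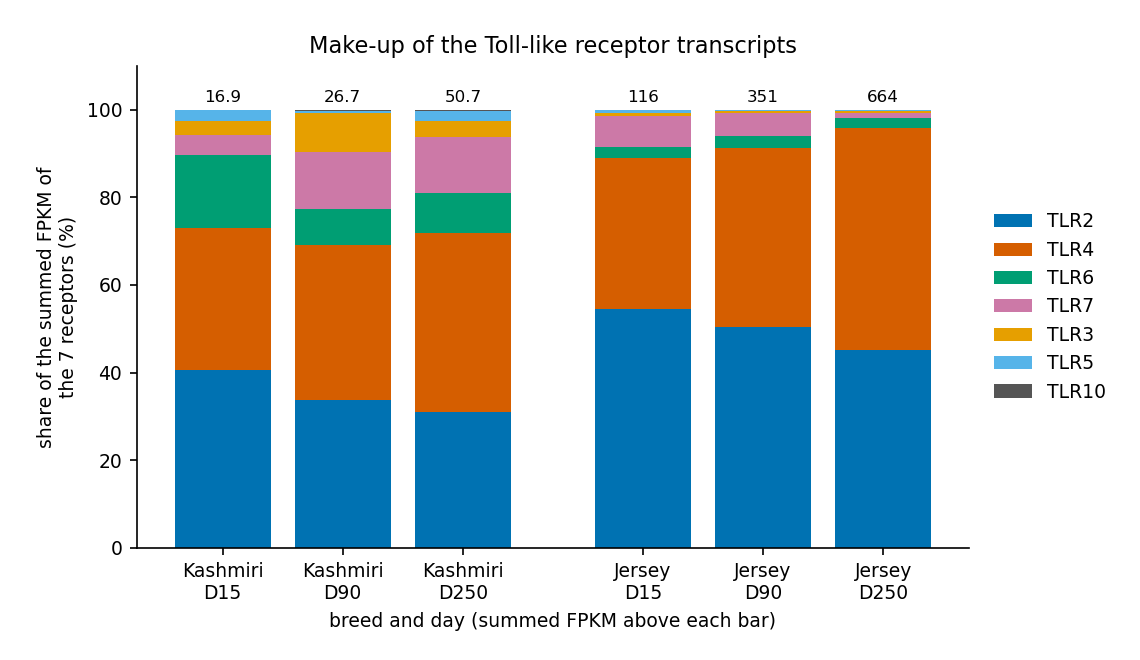
Share (%) of each Toll-like receptor in the summed FPKM of the 7 measured receptors, for each breed and day, with that sum above each bar. TLR2 and TLR4 fill 69.2% to 72.9% of the Kashmiri bars and 89.0% to 95.9% of the Jersey bars, and the TLR2 part is smaller at each later day in both breeds.

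Within the family the balance of TLR2 and TLR4 moved towards TLR4 along lactation in both breeds. The ratio of TLR2 to TLR4 was 1.26, 0.957 and 0.757 in Kashmiri cattle. In Jersey cattle it was 1.58, 1.24 and 0.891. TLR2 was the higher of the pair at D15 in both breeds and TLR4 was the higher at D250 in both breeds, and at D90 the breeds differed in which was higher. No spread between cows stands behind these ratios.

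To compare groups, a gene reaching 1 FPKM or more in one or both groups was tested, and it was called when log2 of the ratio, after adding 1 FPKM to each value, was 2 or more or -2 or less. Log2 ratios below are on this scale and carry no test. Of the 7 measured members, 6 reached 1 FPKM in at least 1 group, and TLR10 could therefore not be called in any comparison.

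The first question was how the breeds differed at each day. TLR2 was 9.24-fold higher in Jersey than in Kashmiri cattle at D15, 19.6-fold at D90 and 19.1-fold at D250. TLR4 was 7.33-fold, 15.2-fold and 16.2-fold higher at the same days. The log2 ratios were 3.03, 4.15 and 4.17 for TLR2 and 2.67, 3.79 and 3.96 for TLR4. The medians over all tested names were -0.13, -0.03 and -0.10. At D250 these ratios were 3.44 for TLR2 and 3.22 for TLR4 rescaled to the sum, and 2.34 and 2.12 relative to PTPRC. Both genes were called at each day, and at D90 only 118 tested names had a larger ratio than TLR2. TLR7 was 10.97-fold higher in Jersey at D15 (log2 ratio 2.41) and 5.29-fold at D90 (log2 ratio 2.12), both called, and 1.35-fold at D250 (log2 ratio 0.38), not called and below 0 under the 3 rescalings. TLR6 was level at D15 (log2 ratio -0.01) and had log2 ratios of 1.78 at D90 and 1.45 at D250, under the limit.

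At D15, 3 of the 4 members tested were called higher in Jersey cattle, where 6.45% of all tested names were called higher. TLR7 was under 1 FPKM in Kashmiri cattle at D15 and was tested only through its Jersey value, while TLR3, TLR5 and TLR10 were under 1 FPKM in both breeds and were not tested. At D90, 3 of 5 tested members were called higher, against 6.58% of all tested names, and at D250 it was 2 of 6, against 10.9%. No member was called lower in Jersey cattle at any day, where 2.12%, 5.17% and 1.37% of all tested names were called lower at D15, D90 and D250. TLR3 and TLR5 were not called at any day.

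The second question was how the receptors differed between days within a breed. In Kashmiri cattle no member was called between D15 and D90, where 2.34% of all tested names were called higher and 5.16% lower. None was called between D90 and D250 either, where these shares were 0.859% and 1.12%. Between D15 and D250, TLR7 was called higher (8.50-fold, log2 ratio 2.09), 1 of 6 tested members against 1.85% of all tested names called higher and 2.20% called lower. At D15 TLR7 was under 1 FPKM, so that it was tested only through its value at D250. TLR4 came next (3.79-fold, log2 ratio 1.75), followed by TLR2 (2.29-fold, log2 ratio 1.09), and the median over all tested names was -0.04. TLR2, TLR3, TLR4, TLR5 and TLR6 had a higher deposited value at D250 than at D15 in both breeds, and relative to PTPRC TLR4 alone of these did so in Jersey cattle.

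In Jersey cattle no member was called between D15 and D90, where 2.98% of all tested names were called higher and 3.78% lower. The largest ratios of the measured members there were those of TLR4 (3.57-fold, log2 ratio 1.81), TLR6 (3.54-fold, log2 ratio 1.52) and TLR2 (2.79-fold, log2 ratio 1.47). None was called between D90 and D250, where 3.72% of all tested names were called higher and 0.466% lower. TLR7 was the only measured member with a lower value at D250 than at D90 in Jersey cattle, 2.099-fold lower (log2 ratio -0.99). Only 4.32% of all tested names had a lower ratio than TLR7 in that comparison. Between D15 and D250, TLR4 (8.39-fold, log2 ratio 3.04), TLR2 (4.72-fold, log2 ratio 2.22) and TLR6 (5.10-fold, log2 ratio 2.01) were called higher. These were 3 of 6 tested members, against 9.17% of all tested names called higher and 3.42% called lower, and the median over all tested names was 0.07. The ratio of TLR6 was at the limit, and was under it with values rescaled to the sum of named genes (1.87) or by the upper quartile (1.88).

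**Figure D3:**
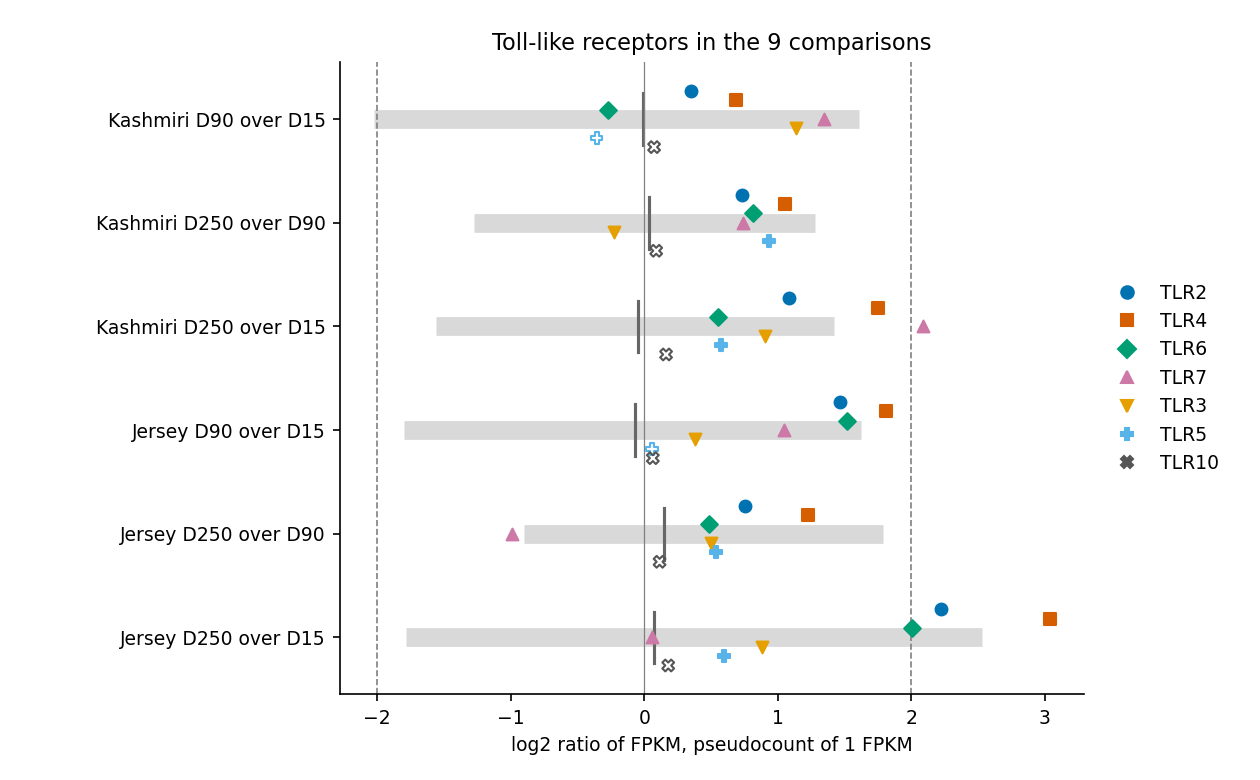
Log2 ratios of FPKM (pseudocount of 1 FPKM) of the 7 Toll-like receptors in the comparisons of days within each breed. The 3 comparisons of the breeds are not drawn, although the title counts 9 comparisons. Filled symbols are members at 1 FPKM or more in either group and open symbols are the others. The grey bars span the 5th to 95th percentile of all tested names, the short dark lines are their medians and the dashed lines mark the limit of 2. Between D15 and D250, TLR2, TLR4 and TLR6 lie past it in Jersey cattle and TLR7 in Kashmiri cattle.

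The difference between days was not alike in the breeds for every receptor. From D15 to D90, the log2 ratio was larger in Jersey than in Kashmiri cattle by 1.79 for TLR6 and by 1.12 for both TLR2 and TLR4. Rescaling to the sum of named genes, by the upper quartile or to PTPRC left these differences between 1.78 and 1.99 for TLR6, between 1.11 and 1.28 for TLR2 and between 1.11 and 1.27 for TLR4. Differences that involve D250 depended on the scaling. From D15 to D250 they were 1.46 for TLR6, 1.29 for TLR4 and 1.14 for TLR2 as deposited, but 0.52, 0.22 and 0.07 rescaled to the sum and -0.36, -0.84 and -0.97 relative to PTPRC. From D90 to D250 they were 0.02 for TLR2 and 0.17 for TLR4 as deposited, but -1.05 and -0.91 rescaled to the sum and -2.25 and -2.11 relative to PTPRC. For TLR7 the difference from D15 to D250 was -2.03 and lay between -4.23 and -2.36 under these rescalings. None of these differences was tested, since each rests on 4 single values.

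Among the partners that bring ligand to the receptors, those of TLR4 were also higher in Jersey cattle. CD14, the co-receptor that hands lipopolysaccharide to TLR4, had 51.8, 69.5 and 68.3 FPKM in Kashmiri and 329.7, 536 and 636 FPKM in Jersey cattle. LY96 (MD-2), which binds lipopolysaccharide on TLR4, had 18.5, 26.4 and 32.6 FPKM in Kashmiri and 21.2, 155 and 196 FPKM in Jersey cattle. CD14 was called between the breeds at all 3 days, and LY96 at D90 and D250 but not at D15. The ratio of CD14 to TLR4 was smaller at each later day, 9.47, 7.36 and 3.29 in Kashmiri and 8.22, 3.74 and 1.89 in Jersey cattle. LBP, the soluble lipopolysaccharide-binding protein, went the other way, with 47.8, 7.30 and 11.5 FPKM in Kashmiri and 29.8, 0.993 and 2.74 FPKM in Jersey cattle. UNC93B1, which escorts the endosomal receptors, had 38.0, 44.9 and 30.03 FPKM in Kashmiri and 152, 125 and 104 FPKM in Jersey cattle, and was not called in any of the 9 comparisons. LY86, which forms a complex with the TLR relative CD180, was called higher at D90 than at D15 in Kashmiri cattle (3.77 and 25.9 FPKM) and higher in Jersey than in Kashmiri cattle at D15 (34.1 and 3.77 FPKM).

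The adaptors did not move as a group. MYD88 had 43.8, 49.0 and 50.1 FPKM in Kashmiri and 122, 214 and 969 FPKM in Jersey cattle. It was called in Jersey cattle between D90 and D250 and between D15 and D250, and between the breeds at D90 and D250. TICAM1, through which TLR3 signals, ranged from 1.16 to 7.92 FPKM and was not called in any comparison. Nor were SARM1 and the entries that join TIRAP with DCPS and TICAM2 with TMED7.

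The rest of the pathway was described from lists of co-receptors and chaperones, adaptors, kinases and ligases, transcription factors, inhibitors and target cytokines, 67 genes of which 62 had an entry. Between the breeds at D15, 8 of 57 tested pathway genes were called higher and 1 lower in Jersey cattle, where 6.45% and 2.12% of all tested names were. At D90 it was 21 higher and 2 lower of 61, against 6.58% and 5.17% of all tested names, and at D250 it was 33 higher and 0 lower of 60, against 10.9% and 1.37%. In Jersey cattle 18 were called higher and 2 lower of 60 between D15 and D90, against 2.98% and 3.78% of all tested names. It was 2 higher and 0 lower of 60 between D90 and D250, against 3.72% and 0.466%, and 28 higher and 2 lower of 60 between D15 and D250, against 9.17% and 3.42%. In Kashmiri cattle 1 was called higher and 1 lower between D15 and D90 (2.34% and 5.16% of all tested names), 1 lower between D90 and D250 (1.12%) and 0 between D15 and D250. Part of these genes were tested only through the group in which they were high, so the counts are a description. Between the breeds at D250, the pathway genes called in either direction numbered 25 rescaled to the sum and 29 by the upper quartile. The pathway counts were not made relative to PTPRC, which had 87.9 FPKM in Kashmiri and 320.2 FPKM in Jersey cattle at D250. The median log2 ratio of the tested pathway genes between the breeds was 0.67 for D15, 1.38 for D90 and 2.23 for D250.

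Of the 16 kinases and ligases, 7 were called higher in Jersey than in Kashmiri cattle at D250 and 0 at D15, where 10.9% and 6.45% of all tested names were. MAP3K8 had 6.43 FPKM in Kashmiri and 123 FPKM in Jersey cattle at D250, IKBKB (a kinase of the inhibitor of NF-κB) had 10.9 and 143 FPKM, and IRAK2 (a kinase recruited through MYD88) had 6.82 and 60.6 FPKM. IRAK1 was not called in any comparison. Of the 9 transcription factors, 6 were called higher at D250, among them NFKB2 (30.5 and 691 FPKM) and NFKB1 (16.7 and 265 FPKM). The antiviral factors IRF3 and IRF7 were not called. At D250, IRF3 had 52.0 FPKM in Kashmiri and 42.3 FPKM in Jersey cattle, and IRF7 had 31.0 and 111 FPKM.

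Inhibitors of the pathway were also among the called genes. Of the 12 tested inhibitors, 8 were called higher in Jersey than in Kashmiri cattle at D250 (10.9% of all tested names), with 71.7 and 3890 FPKM for NFKBIA, 10.7 and 361 FPKM for TANK, and 59.0 and 1392 FPKM for TNIP1. Among these 8, TNIP3 (0.256 and 5.91 FPKM) was under 1 FPKM in Kashmiri cattle and so was tested only through its Jersey value. SIGIRR, an inhibitory receptor, was lower at D250 than at D15 in both breeds, with 46.3, 27.3 and 10.8 FPKM in Kashmiri and 23.6, 3.55 and 4.07 FPKM in Jersey cattle. TOLLIP was not called in any comparison. Of the 10 tested target cytokine and effector genes, 9 were called higher in Jersey cattle at D250 (10.9% of all tested names), but 4 of these (IL6, IL12B, CCL20 and PTGS2) were under 1 FPKM in Kashmiri cattle and so were tested only through their Jersey value. IL1B had 20.5 FPKM in Kashmiri and 3290 FPKM in Jersey cattle (log2 ratio 7.26), NOS2 had 2.43 and 324 FPKM, IL1A had 1.495 and 173 FPKM and CCL20 had 0.326 and 69.4 FPKM. The entry that joins CXCL10 and CXCL11 was the exception in the other direction at D15, with 35.4 FPKM in Kashmiri and 6.92 FPKM in Jersey cattle. The value of TNF is that of an entry it shares with LTA, and the call between D90 and D250 in Kashmiri cattle (24.3 and 5.18 FPKM) was of this entry.

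All 9 neutrophil markers with an entry were higher in Jersey than in Kashmiri cattle at each day. Of the 10 macrophage markers, 10 were higher at D15, 10 at D90 and 6 at D250, where C1QA, C1QB, C1QC and MSR1 were lower. Of the 10 T and NK cell markers, 8 were lower in Jersey cattle at D15, 9 at D90 and 9 at D250. None of the neutrophil markers (9 of 12 listed) was at 0 in any group, and their FPKM summed to 173, 481 and 589 in Kashmiri and to 4710, 5270 and 13318 in Jersey cattle. All 10 macrophage markers had an entry, none at 0, and summed to 58.5, 418 and 430 in Kashmiri and to 692, 1622 and 1228 in Jersey cattle. The 10 T and NK cell markers summed to 384, 1611 and 364 in Kashmiri and to 262, 170 and 95.4 in Jersey cattle. The neutrophil sum was thus ordered by day in both breeds, as TLR2 and TLR4 were, and the macrophage sum was highest at D90 in Jersey cattle, as TLR7 was. CD68 made up most of that sum (1211 of 1622 FPKM), while the complement genes C1QA, C1QB and C1QC were highest at D15 in Jersey cattle (145, 98.2 and 144 FPKM) and had 12.01, 10.4 and 6.795 FPKM at D250. Summed FPKM of 8 B cell markers ranged from 8.75 to 71.6, of 8 of 9 dendritic cell markers from 26.6 to 244, and of 3 of 6 red blood cell markers from 0.0137 to 0.939. HBB, the beta-globin gene, was listed at 0 in 3 groups. CLEC9A, a dendritic cell marker, was listed at 0 in Kashmiri at D15 and in Jersey at D250, and CXCR1, CXCR2 and FPR1 were neutrophil markers without an entry. The part of these cells in the receptor levels was not tested.

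Across the 6 group values, log2(FPKM + 1) of TLR2 had a Pearson r of 0.98 with the mean of the neutrophil markers and of 0.76 with that of the macrophage markers. For TLR4 these were 0.95 and 0.74. For TLR7 they were 0.83 and 0.98, and for TLR3 they were 0.27 and 0.38. With the mean of the dendritic cell markers, r was 0.92 for TLR2, 0.90 for TLR4, 0.93 for TLR7 and 0.43 for TLR3. With the mean of the epithelial markers, r was below 0 for all 7 receptors, from -0.73 for TLR7 to -0.09 for TLR5. All points of a group come from the same libraries, and 6 points describe these groups only.

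**Figure D4:**
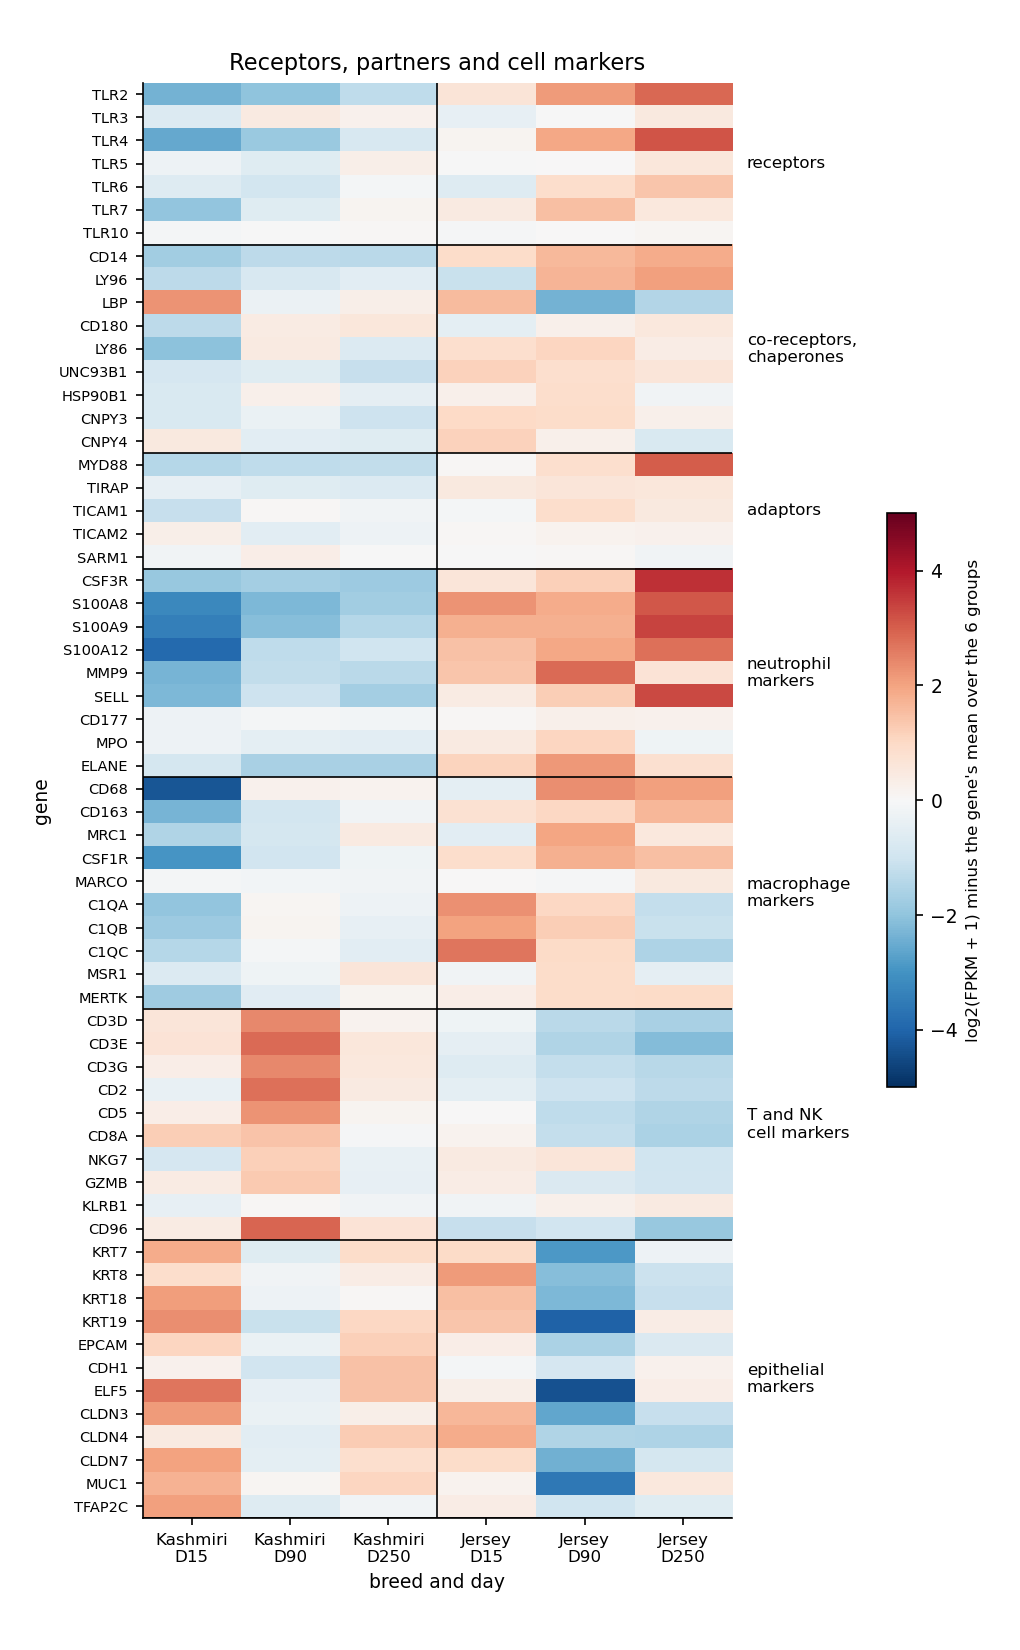
Receptors, co-receptors and chaperones, adaptors and markers of 4 cell types (rows, every listed gene with an entry) in the 6 groups of breed and day (columns), coloured by log2(FPKM + 1) minus the mean of the gene over the groups. TLR2, TLR4, CD14, LY96 and most neutrophil markers are red in Jersey at D250 and blue in Kashmiri cattle, whereas most T and NK cell markers are highest in Kashmiri at D90 and most epithelial markers are lowest in Jersey at D90.

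Set against PTPRC, the common leucocyte antigen, TLR2 and TLR4 still differed between the breeds, but this scale does not hold the kinds of leucocyte alike. At D15 PTPRC had 68.7 FPKM in Kashmiri and 60.0 FPKM in Jersey cattle. The neutrophil markers summed to 173 and 4710 FPKM at that day, and the T and NK cell markers to 384 and 262 FPKM. The part of each kind of leucocyte in the difference was not tested. The ratio of TLR2 to PTPRC was 0.10004, 0.0544 and 0.179 in Kashmiri and 1.06, 1.48 and 0.937 in Jersey cattle. The ratio of TLR4 to PTPRC was 0.0796, 0.0569 and 0.236 in Kashmiri and 0.669, 1.20 and 1.05 in Jersey cattle. On this scale the lowest Jersey value of each gene again lay above its highest Kashmiri value, but the order by day was lost in both breeds. PTPRC itself had 320.2 FPKM in Jersey at D250 and 60.0 FPKM in Jersey at D15, and TLR2 and TLR6 then had log2 ratios near 0 between these days (-0.18 and -0.06), and TLR4 had 0.65, so that none of the 3 was called on this scale. The ratio of TLR7 to PTPRC was 0.0111, 0.0210 and 0.0741 in Kashmiri and 0.14004, 0.154 and 0.0275 in Jersey cattle, so that Jersey was lower than Kashmiri at D250.

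The members also differed in how alike their patterns were. TLR2 and TLR4 had an r of 0.99 over the 6 groups, TLR4 and TLR6 of 0.91, and TLR2 and TLR7 of 0.82, whereas TLR2 and TLR3 had an r of 0.30. Of 8191 other names with a symbol and a range of at least 1 on the log2(FPKM + 1) scale, 390 had an r above 0.95 with TLR2 and 395 with TLR4, against 128 with TLR6, 56 with TLR7, 20 with TLR3 and 6 with TLR5. The patterns most like TLR4 were those of CD274 (PD-L1, an inhibitory ligand of T cells), with 3.57, 6.88 and 16.2 FPKM in Kashmiri and 29.7, 104 and 333 FPKM in Jersey cattle, and MEIS3. Those most like TLR2 were SMURF1 and the entry that joins C5AR2, a receptor for the complement fragment C5a, with DHX34. EDNRB, the endothelin receptor B, was most like TLR7, with 0.374, 2.97 and 6.67 FPKM in Kashmiri and 10.5, 38.8 and 12.4 FPKM in Jersey cattle, and was followed by SLC38A6. UAP1 and SUSD1 were most like TLR6, ATXN2L and DDX20 most like TLR3, and MED29 and ZFHX3 most like TLR5, with r from 0.97 to 0.99.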

How the data were processed

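RNA of milk epithelial cells was measured in 17 labelled samples, grouped by breed and stage. After trimming, the authors used Bowtie and TopHat to align reads to UMD3.1, a bovine assembly. They used Cufflinks with Cuffdiff for expression and for tests between groups. The deposited values are FPKM pooled to 1 value per group. Such values hold no spread between cows and their depth is unknown, so no test, error or interval was computed here. The columns named Local were taken as Kashmiri, the breed other than Jersey. For a repeated name the entry of highest mean FPKM was used, and joined names were looked up by each part. In 9 comparisons a gene was tested at 1 FPKM or more in either group and called at an absolute log2 ratio of 2 or more with a pseudocount of 1 FPKM, and percentages of all tested names called are over 1 entry per name. The members and lists were chosen with earlier results of these data known. Named genes were all members, CD14, LY96, MYD88, UNC93B1, PTPRC, ITGB2, LSP1 and KRT18, up to 4 called genes per list and comparison by size, and for each member at 1 FPKM or more the 2 names of highest Pearson r. Pathway genes given as not called or as under 1 FPKM in Kashmiri cattle, the joined TNF, SIGIRR and CXCL10 values and the single marker genes were named after their values were seen. The alternatives were a pseudocount of 0.1 FPKM, a limit of 0.01 FPKM, a call at an absolute log2 ratio of 1, scaling to the sum of named genes but the milk protein genes, by the upper quartile or to PTPRC, and the sum of all entries of a name. A count was taken as unchanged within a factor of 1.5, and a log2 ratio within 0.58 with its sign kept. The code was tested on simulated data and used pandas 2.3.3 and numpy 2.4.6 under Python 3.11.15, with matplotlib 3.10.9 for plots. No protein, promoter or genome sequence was used here.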

Additional observations from a re-analysis of the deposited data

Results flagged for a closer look

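Among the receptors at 1 FPKM or more in the days compared, the deposited values of the breeds moved in opposite directions in 3 cases, and none of these differences was tested, since there was 1 value per group. For TLR6 between D15 and D90, the Kashmiri value was lower at D90 (2.83 and 2.18 FPKM) and the Jersey value was higher (2.81 and 9.93 FPKM), a difference in log2 ratio of 1.79. For TLR7 between D90 and D250, the Kashmiri value was higher at D250 (3.49 and 6.51 FPKM) and the Jersey value was lower (18.5 and 8.79 FPKM), a difference of -1.73. For TLR3 between D90 and D250, the Kashmiri value was lower at D250 (2.38 and 1.88 FPKM) and the Jersey value was higher (1.46 and 2.49 FPKM), a difference of 0.73. Rescaled to the sum, the log2 ratio of TLR3 was above 0 in both breeds (0.26 in Kashmiri and 0.23 in Jersey cattle), and relative to PTPRC both signs turned (0.41 and -0.37). TLR5, under 1 FPKM at both days in both breeds, also moved in opposite directions between D15 and D90 (0.424 and 0.112 FPKM in Kashmiri, 0.685 and 0.756 FPKM in Jersey cattle).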

How the results depend on the processing

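With an absolute log2 ratio of 1, the called receptors in Kashmiri cattle became 2 from D15 to D90, 1 from D90 to D250 and 3 from D15 to D250, and those in Jersey cattle became 4 from D15 to D90 and 1 from D90 to D250. The called pathway genes became 20, 9 and 15 in Kashmiri cattle for these pairs of days, 37 and 15 in Jersey cattle for the first 2 pairs, and 26, 39 and 50 between the breeds at D15, D90 and D250. With a pseudocount of 0.1 FPKM, 1 receptor was called in Kashmiri cattle from D15 to D90 and 1 from D90 to D250, and 6 and 5 pathway genes for D15 to D90 and D15 to D250. The shares of all tested names called at that limit and with that pseudocount are not given here, so these counts have no background beside them. Rescaling to the sum gave 3 called receptors in Kashmiri cattle (D15 and D250) and 1 in Jersey cattle (D15 and D90). Pathway genes then numbered 0 and 6 in Kashmiri cattle (D90 and D250, D15 and D250) and 0 in Jersey cattle (D90 and D250). Of all tested names, 4.17% and 7.73% were called in either direction in these Kashmiri comparisons. In Jersey cattle it was 6.97% for D15 and D90 and 3.11% for D90 and D250. By the upper quartile there were 2 receptors (Kashmiri, D15 and D250). Pathway genes numbered 0 and 1 in Kashmiri cattle (D90 and D250, D15 and D250) and 0 in Jersey cattle (D90 and D250). Of all tested names, 2.15%, 4.03% and 3.29% were called in either direction in that order. Relative to PTPRC, 1 receptor, TLR7, was called in Jersey cattle between D90 and D250 and 1, again TLR7, between D15 and D250. Of all tested names, 6.75% and 42.7% were called in either direction in these comparisons. Between D15 and D250 the log2 ratios of TLR2 and TLR6 reversed to -0.18 and -0.057. The cause was not tested. TLR2 and TLR4 were called higher in Jersey cattle at all 3 days under the rescaling to the sum, the upper quartile and PTPRC. In these comparisons of the breeds, from 8.23% to 30.2% of all tested names were called in either direction. The median log2 ratio of all tested names shifted by -0.64 to 0.85 with the sum, by -0.42 to 0.25 with the upper quartile and by -1.81 to 0.77 with PTPRC. With the limit of 0.01 FPKM all 7 receptors were tested, but this could not change the number of called genes. A gene under 1 FPKM in both groups cannot reach a log2 ratio of 2 with the pseudocount of 1 FPKM. Each receptor had a single entry, so the sum of entries could not change its log2 ratio either. The rescaled differences between the breeds in the ratio of days were chosen after seeing the data. No paired analysis was possible because the values are pooled per group. Leaving out a replicate was not possible for the same reason.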
